A study of Homo sapiens with 9 samples.

Results

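The serine/arginine-rich (SR) splicing factors and the heterogeneous nuclear ribonucleoproteins (hnRNPs) were examined in MOLM13 cells depleted of DDX41. The genes were taken from the count table by symbol: SRSF followed by digits, every symbol beginning with HNRNP that did not name a pseudogene, and TRA2A, TRA2B, SRRM1, SRRM2 and PTBP1. This gave 41 of the 30017 genes in the table, namely 12 SRSF genes, 4 genes of the TRA2 and SRRM kind, 24 HNRNP symbols and PTBP1. Of these, 38 had enough counts to be tested (11, 4, 22 and 1). SRSF12 and HNRNPCL1 held at most 2 counts and at most 1 count in any library, and the read-through symbol HNRNPUL2-BSCL2 held 0 counts in every library.

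MOLM13 is a human acute myeloid leukemia line, and DDX41 is a DEAD-box RNA helicase. The cells of all 3 groups were transduced with pLKO.1-GFP lentivirus, which also expresses green fluorescent protein, and GFP-positive cells were sorted at day 4 after transduction. One group received a control hairpin (sh-Control), and shDDX41 #1 and shDDX41 #2 each received a different hairpin targeting DDX41. Each group held 3 libraries, lettered A, B and D. The study describes a nearly complete loss of DDX41 with shDDX41 #1 and a partial loss with shDDX41 #2. The model is thus 1 cell line with depletion by hairpins, without a rescue with a hairpin-resistant DDX41 among these libraries. The labels do not say whether the letters mark separate transductions, so the p-values measure the spread between these libraries only, which may be technical.

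SR proteins bind RNA through RNA recognition motifs and recruit the splicing machinery through an arginine/serine-rich (RS) domain that is phosphorylated by SRPK and CLK kinases. The hnRNPs coat nascent transcripts, and many of them oppose the use of nearby splice sites, so the balance of both families sets much of alternative splicing. Many SR and hnRNP genes limit their own output through poison exons, which are alternatively spliced exons with an in-frame stop codon that sends the transcript to nonsense-mediated decay. In acute myeloid leukemia the family is known for recurrent mutation of SRSF2.

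Poison exons were sought in the GENCODE release 29 annotation (build GRCh38), because they are the best known feature that these genes share. Among the 37 tested genes found there, 29 (78.38%) had a transcript annotated for nonsense-mediated decay, against 44.33% of all 10836 tested protein-coding genes. This background, also used for the next share, was not matched for level or for the number of annotated transcripts, which was 50 for HNRNPH1. A cassette exon that carried the premature stop and touched no exon of a coding transcript was annotated in 10 genes (27.03%), against 16.59% of all tested protein-coding genes. These 10 were SRSF3, SRSF4, SRSF6, SRSF7, SRSF9, SRRM1, SRRM2, HNRNPL, HNRNPLL and HNRNPU. Stretches from 5 of them follow, chosen as genes that fell (SRSF7, SRSF6 and SRSF4), as the gene of the 10 that rose (HNRNPLL) and as a well-studied case that was not called (SRSF3). Each is read on the gene's strand from the first base of the exon to the premature stop codon, which is in capitals. They lie at chr20:43459153-43459304 (SRSF6, + strand, in an exon of 268 bases), chr1:29160018-29160058 (SRSF4, - strand, 195 bases), chr2:38577956-38578002 (HNRNPLL, - strand, 83 bases), chr6:36599821-36599854 (SRSF3, + strand, 456 bases) and chr2:38749319-38749346 (SRSF7, - strand, 449 bases).
SRSF6: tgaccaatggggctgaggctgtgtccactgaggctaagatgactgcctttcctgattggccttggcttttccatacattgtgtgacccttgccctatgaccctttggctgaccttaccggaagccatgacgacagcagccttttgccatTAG
SRSF4: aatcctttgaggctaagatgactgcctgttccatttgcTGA
HNRNPLL: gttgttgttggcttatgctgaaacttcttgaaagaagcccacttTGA
SRSF3: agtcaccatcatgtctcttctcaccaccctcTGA
SRSF7: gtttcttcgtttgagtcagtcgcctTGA

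The SRSF6 and SRSF4 stretches shared an unbroken run of 20 bases, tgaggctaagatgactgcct. SRSF3 and SRSF4 had 2 such exons and SRSF7 had 3, and not all are printed. Over all of these stretches, the longest run shared by any other pair of genes was 8 bases. It lay in SRSF6 and in a stretch of SRSF7 that is not printed. Among the printed stretches it was 7 bases, shared by HNRNPLL and SRSF6. The counts sum all transcripts of a gene, so inclusion of these exons was not measured.

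The libraries held from 16385238 to 20510032 counts. The unit of a level is CPM, the count of a gene as a share of its library, with totals scaled by the TMM method (trimmed mean of M-values). Values are listed in the order A, B and D. The DDX41 level was 117, 115 and 113 CPM with the control hairpin, 12.2, 12.9 and 9.95 CPM with shDDX41 #1, and 38.9, 39.9 and 42.5 CPM with shDDX41 #2, so that every library matched its label. It fell by 89.8% with hairpin #1 and fell by 64.8% with hairpin #2. Library D of shDDX41 #1 stood apart from its group. Its counts differed from those of libraries A and B with a chi-square per degree of freedom of 17.6 and 19.2, against 2.91 between A and B. The sh-Control libraries, which both comparisons with the control share, also spread widely, with 8, 10.1 and 8.35 for their pairs. Pairs of shDDX41 #2 libraries gave 2.72, 2.45 and 3.25. Myeloid markers were expressed, with summed levels of 2340 to 2520 CPM in sh-Control, 2390 to 2490 CPM with hairpin #1 and 3250 to 3300 CPM with hairpin #2, although CD14 was too low to be tested. The higher sum with hairpin #2 was mostly LYZ, at 931 ± 54.9 CPM in sh-Control and 1820 ± 20.6 CPM with hairpin #2 (SD, n = 3), and 6 of the 9 tested markers had negative log2 fold changes there. The summed T cell, B cell and epithelial markers stayed at or below 2.18, 1.26 and 0.121 CPM in every library. CD3G, CD2, MS4A1, KRT5, CDH1 and all 4 erythroid markers were at 0. The 10 cell cycle genes examined all fell with hairpin #1, by a median of 0.81 on the log2 scale. None of them was called with hairpin #2, where their median log2 change was -0.09. The part of this difference in the results below was not tested. In bulk RNA, fewer cells that express a gene and less of its RNA per cell cannot be told apart.

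The SR and hnRNP genes were abundant transcripts. Together they took 2.03 to 2.14% of all counts in sh-Control libraries, 1.92 to 2.04% with shDDX41 #1 and 1.97 to 2.01% with shDDX41 #2. The SRSF genes alone took 0.313 to 0.348%, 0.29 to 0.303% and 0.286 to 0.293%, and every depleted library was below every control library. Compared per kilobase of annotated exon, HNRNPK was the highest in control cells, at 466 ± 2.96 CPM per kb (SD, n = 3). It was followed by HNRNPA1 at 371 ± 15.2 and HNRNPA2B1 at 359 ± 14.9 CPM per kb, which did not differ beyond their spread. This order depends on the annotated length, which joins exons whether or not these cells use them. In CPM without the length, HNRNPU (2210 ± 33.2), HNRNPA2B1 (2140 ± 88.8) and HNRNPA1 (1590 ± 64.9) were above HNRNPK (1420 ± 9.0) in control cells. SRSF1 was the highest SR gene at 180 ± 5.85 CPM per kb. SRSF8 at 8.21 ± 0.238 and HNRNPH2 at 0.24 ± 0.0674 CPM per kb were the lowest. HNRNPH2 rested on 7 to 18 counts per library. The read-through gene RPL36A-HNRNPH2, at 0 CPM in every group, shares exons with it on the same strand. How reads in shared exons were counted is not given, so the low value of HNRNPH2 is uncertain as a level.

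A gene was called at an adjusted p under 0.05 by edgeR's quasi-likelihood test over all 12712 tested genes. With shDDX41 #1, 17 of the 38 SR and hnRNP genes changed (44.7%), 12 lower and 5 higher. Of all tested genes, 47.8% were called in this comparison, 24.1% lower and 23.7% higher, so the share of called genes was near the background while the split leaned to lower values. A change of at least 1.5-fold was reached by 3 of them, against 18.4% of all genes. The median log2 fold change was -0.12, against 0.01 over all tested genes. This split depended on the scaling: upper quartile factors, which moved the median of all genes from 0.012 to 0.087, gave 11 calls, 6 lower and 5 higher, with 61.1% of all called genes higher in place of 49.5%.

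With shDDX41 #2, 10 of the 38 genes changed (26.3%), 8 lower and 2 higher, against a background of 25.0%, with 13.4% lower and 11.6% higher. None reached 1.5-fold, against 7.09% of all genes. Over the 38 genes, the median log2 change was -0.04 and that of all tested genes -0.01. Without library D of shDDX41 #1, 14 genes were called with hairpin #2 and 20 with hairpin #1, while the calls over all genes went from 3174 of 12712 to 4248 of 12902 with hairpin #2 and from 6078 to 6256 with hairpin #1. Without library B of shDDX41 #2, 7 of the 38 and 2054 of 12884 genes were called with hairpin #2. Both comparisons used the same 3 control libraries.

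**Figure D1:**
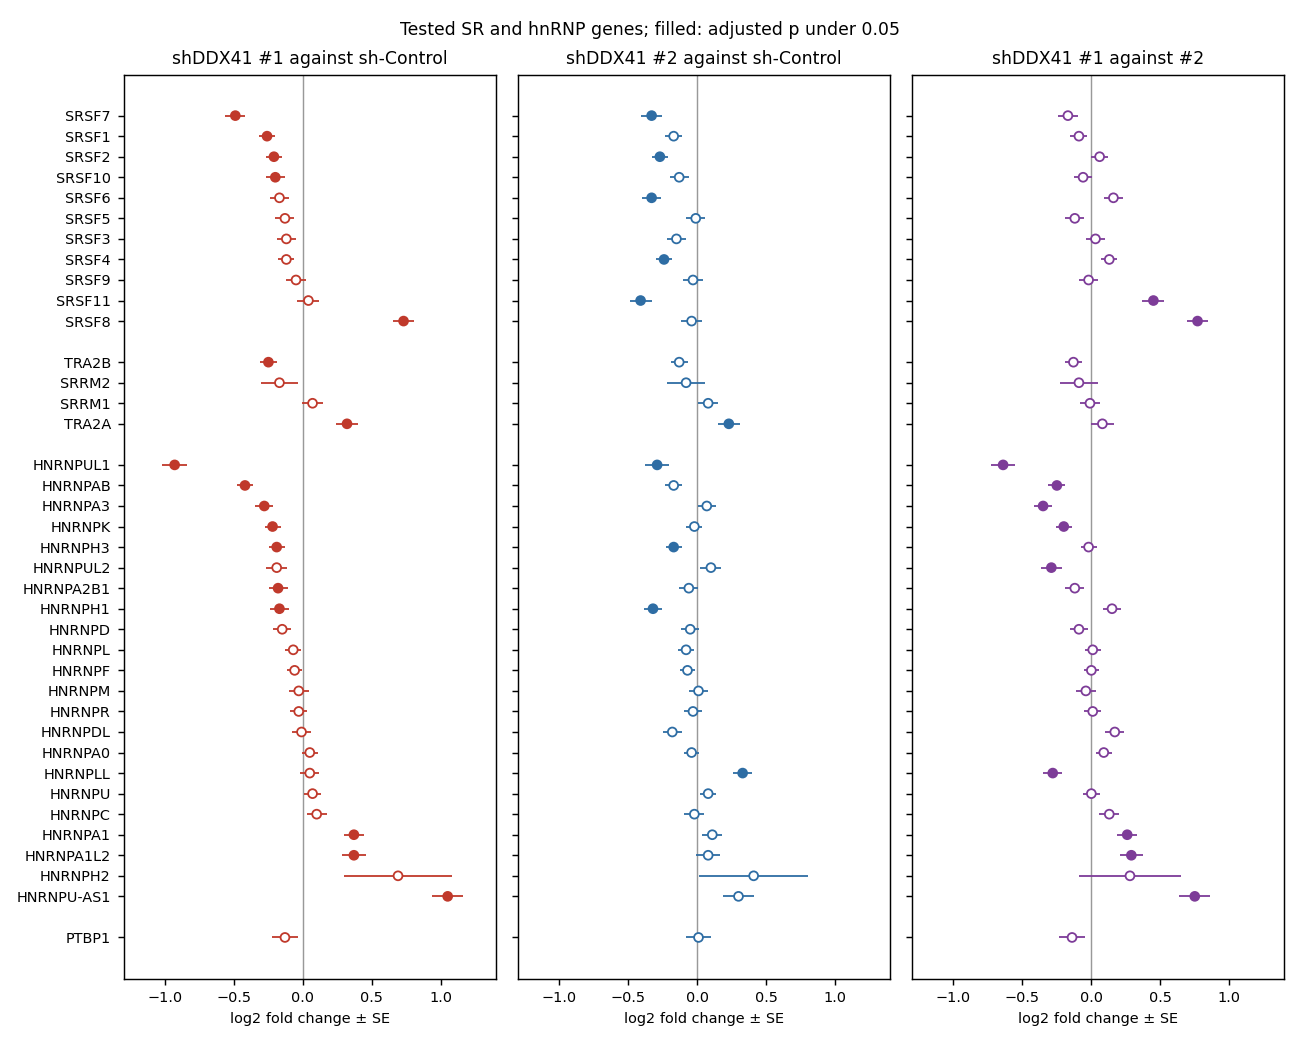
Log2 fold change (horizontal axis, ± standard error) of each of the 38 tested SR and hnRNP genes in the 3 comparisons, ordered by role and then by the change with shDDX41 #1; filled circles mark an adjusted p under 0.05. Most called genes lie left of 0 in the first 2 panels, and HNRNPUL1 (-0.93) and HNRNPU-AS1 (1.05) mark the ends of the range with shDDX41 #1.

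Among the SRSF genes, whose products are the classical activators of exon inclusion, 5 of 11 (45.5%) changed with each hairpin. The shares of all tested genes were 47.8% with hairpin #1 and 25.0% with hairpin #2. With shDDX41 #1, SRSF7, SRSF1, SRSF2 and SRSF10 fell and SRSF8 rose. With shDDX41 #2, SRSF11, SRSF6, SRSF7, SRSF2 and SRSF4 fell, and the log2 fold changes of all 11 were at or below -0.01. The median log2 change of the 11 was -0.13 with hairpin #1 and -0.17 with hairpin #2. Setting the hairpins against each other, only SRSF8 and SRSF11 of the 11 were called (18.2%), both higher with hairpin #1. Of all tested genes, 48.8% were called there.

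SRSF7, an SR protein with a zinc knuckle that shuttles between nucleus and cytoplasm, fell with both hairpins. It lies at chr2:38743599-38751494 on the - strand. Its level was 247, 270 and 280 CPM in sh-Control, 169, 197 and 199 CPM with shDDX41 #1, and 218, 210 and 207 CPM with shDDX41 #2. No depleted library reached the lowest control. The log2 fold change was -0.49 ± 0.0738 (SE) with hairpin #1 (adjusted p = 7.1e-05) and -0.33 ± 0.0735 with hairpin #2 (adjusted p = 0.00496). The groups of the 2 hairpins did not overlap either, but their difference of -0.17 ± 0.0739 missed the threshold (adjusted p = 0.0731). It passed without library D of shDDX41 #1 (adjusted p = 0.0204), and over 15 alternatives the adjusted p reached 0.295. SRSF7 is also 1 of the genes with the poison exons shown above.

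SRSF6, which carries the longest of the printed stretches, was at 281, 325 and 332 CPM in sh-Control, 270, 292 and 272 CPM with shDDX41 #1, and 255, 246 and 245 CPM with shDDX41 #2. The libraries of hairpin #2 were all below the controls, whereas those of hairpin #1 overlapped them. The gene lies at chr20:43457928-43464247 on the + strand. It fell with hairpin #2, with a log2 fold change of -0.33 ± 0.0699 (adjusted p = 0.00332). The change of -0.17 ± 0.0698 with hairpin #1 missed the threshold (adjusted p = 0.0581). It passed without sh-Control library A (adjusted p = 0.00772) or without shDDX41 #1 library B (adjusted p = 0.0478). Over 15 alternatives its adjusted p reached 0.278. The hairpins differed by 0.16 ± 0.07, which missed the threshold as well (adjusted p = 0.0703). This difference passed without sh-Control library A (0.0327) or shDDX41 #1 library D (0.0355), and its adjusted p over 15 alternatives reached 0.218.

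SRSF11, an RS-domain protein also known as p54, lies at chr1:70205682-70253052 on the + strand. It was at 184, 238 and 210 CPM in sh-Control, 216, 217 and 216 CPM with shDDX41 #1, and 162, 151 and 161 CPM with shDDX41 #2. Only the libraries of hairpin #2 lay below the controls, and those of hairpin #1 lay within the control range. The log2 fold change was -0.41 ± 0.08 with hairpin #2 (adjusted p = 0.0017) and 0.04 ± 0.0796 with hairpin #1 (adjusted p = 0.721). The direct comparison of the hairpins gave 0.45 ± 0.0801 (adjusted p = 2.8e-04), the change with hairpin #1 being the higher.

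SRSF8 is a retrotransposed copy of SRSF2, at chr11:95067197-95071224 on the + strand. It was at 32.1, 34 and 33.1 CPM in sh-Control, 55.8, 51.7 and 56.9 CPM with shDDX41 #1, and 31.2, 34.8 and 30.7 CPM with shDDX41 #2. All libraries of hairpin #1 were above all others, and those of hairpin #2 spanned the control range. It rose by 65.8% with hairpin #1, a log2 fold change of 0.73 ± 0.0744 (adjusted p = 1.7e-06). With hairpin #2 the change was -0.04 ± 0.0759 (adjusted p = 0.767), and the hairpins differed by 0.77 ± 0.0745 (adjusted p = 1.0e-06). Its parent SRSF2, which binds exonic enhancers, fell under both hairpins, by 0.21 ± 0.0608 with #1 (adjusted p = 0.00998) and by 0.27 ± 0.0607 with #2 (adjusted p = 0.00504) on the log2 scale. Upper quartile factors ended the call of SRSF2 with hairpin #1 (adjusted p = 0.0833). SRSF8 counts were 6.93 to 7.44% of SRSF2 counts in sh-Control, 13.3 to 14.5% with hairpin #1 and 7.98 to 9.4% with hairpin #2, so the 2 genes did not keep a fixed ratio of counts.

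SRSF1, a founding member of the family, fell by 0.26 ± 0.0613 with hairpin #1 (adjusted p = 0.00262). Its log2 change of -0.17 ± 0.0612 with hairpin #2 narrowly missed the threshold (adjusted p = 0.0514). SRSF10 fell by 0.20 ± 0.0681 with hairpin #1 (adjusted p = 0.0253), a call lost without sh-Control library B (adjusted p = 0.142) or shDDX41 #1 library B (adjusted p = 0.0508). Upper quartile factors (0.137) and a fit of only the 6 libraries compared (0.0645) ended it too. SRSF4 fell by 0.24 ± 0.059 with hairpin #2 (adjusted p = 0.00742). SRSF3, SRSF5 and SRSF9 were called in none of the 3 comparisons, with log2 fold changes between -0.15 and 0.03.

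**Figure D2:**
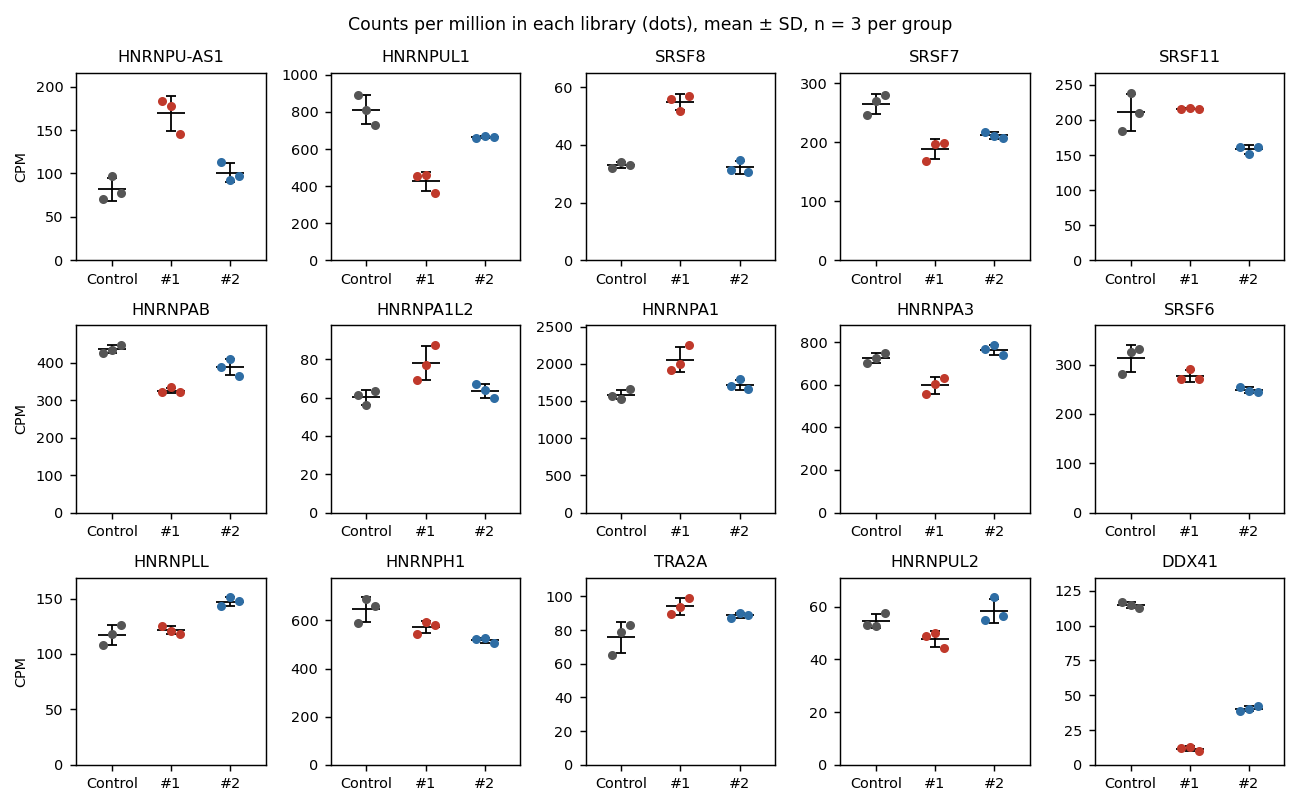
Level in CPM (vertical axis, from 0) of 14 SR and hnRNP genes and DDX41 in the 9 libraries, one dot per library, with the mean and SD of each group of 3. SRSF8, HNRNPA1 and HNRNPU-AS1 are higher in all 3 libraries of shDDX41 #1 than in any other library, and HNRNPUL1 is lower in both depleted groups than in any control.

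TRA2A and TRA2B are SR-like proteins that activate exons with GAA-rich sequences, and they moved in opposite directions with shDDX41 #1. TRA2A, at chr7:23504780-23532041 on the - strand, was at 65.3, 78.6 and 82.8 CPM in sh-Control, 89.3, 93.6 and 99.3 CPM with shDDX41 #1, and 87.2, 90.2 and 88.8 CPM with shDDX41 #2. Every depleted library was above every control library. The log2 fold change was 0.32 ± 0.0817 with hairpin #1 (adjusted p = 0.0051) and 0.23 ± 0.0816 with hairpin #2 (adjusted p = 0.0493). The second call was lost when library A or B of sh-Control or any library of shDDX41 #2 was left out (adjusted p from 0.0594 to 0.181). TRA2B fell by 0.25 ± 0.0608 with hairpin #1 (adjusted p = 0.00302), and its change of -0.13 with hairpin #2 was not called (adjusted p = 0.142). The matrix proteins SRRM1 and SRRM2, which bridge SR proteins bound to exons, were not called in any comparison. SRRM2 varied widely within groups, with 750 ± 127 CPM in sh-Control and 665 ± 144 CPM with hairpin #1 (SD, n = 3).

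Of the 22 tested HNRNP symbols, 10 (45.5%) changed with shDDX41 #1 (7 lower, 3 higher) and 4 (18.2%) with shDDX41 #2 (3 lower, 1 higher). The shares of all tested genes were 47.8% and 25.0%. The median log2 fold change of the 22 was -0.05 and -0.03. HNRNPU, which anchors chromatin to the nuclear scaffold, was not called (log2 fold change 0.07 and 0.08 with hairpins #1 and #2).

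HNRNPUL1, an hnRNP U-like RNA-binding protein that also takes part in DNA repair, showed the largest fall. It lies at chr19:41262496-41307598 on the + strand. Its level was 890, 812 and 732 CPM in sh-Control, 453, 458 and 365 CPM with shDDX41 #1, and 659, 669 and 664 CPM with shDDX41 #2. The 3 groups did not overlap. It fell by 47.5% with hairpin #1 (log2 fold change -0.93 ± 0.0891, adjusted p = 9.3e-07) and by 18.2% with hairpin #2 (-0.29 ± 0.0882, adjusted p = 0.0258), and the hairpins differed by -0.64 ± 0.0888 (adjusted p = 3.2e-05). The call with hairpin #2 was lost without sh-Control library A or B or any 1 library of shDDX41 #2 (adjusted p from 0.075 to 0.106). TGFB1, whose exons overlap HNRNPUL1 on the opposite strand, fell as well, from 123 ± 26.0 CPM to 73.1 ± 6.05 with hairpin #1 (adjusted p = 6.9e-05) and 88.3 ± 1.91 with hairpin #2 (adjusted p = 0.00569). HNRNPUL1 had the larger level, and how far reads of the overlap entered either count was not tested.

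HNRNPUL2, the other U-like gene, was at 53.1, 52.8 and 57.5 CPM in sh-Control, 48.9, 50.0 and 44.4 CPM with shDDX41 #1, and 54.9, 63.6 and 56.6 CPM with shDDX41 #2. The libraries of hairpin #1 were below all others. It lies at chr11:62712630-62727472 on the - strand and shares exons with the read-through gene that held no counts. It was called only between the hairpins, with a difference of -0.29 ± 0.0768 (adjusted p = 0.00591). The change of -0.19 ± 0.077 with hairpin #1 against sh-Control missed the threshold (adjusted p = 0.0548, and 0.0492 without shDDX41 #2 library B). Over 15 alternatives its adjusted p reached 0.232.

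HNRNPU-AS1 showed the largest rise. It was at 71.2, 96.8 and 77.3 CPM in sh-Control, 184, 178 and 146 CPM with shDDX41 #1, and 113, 92.0 and 96.9 CPM with shDDX41 #2. All libraries of hairpin #1 were above all others, and those of hairpin #2 overlapped the controls. It rose by 107% with hairpin #1 (log2 fold change 1.05 ± 0.114, adjusted p = 3.2e-06) and was 0.75 ± 0.113 higher with hairpin #1 than with hairpin #2 (adjusted p = 6.9e-05). The change of 0.30 ± 0.114 with hairpin #2 missed the threshold (adjusted p = 0.0678). It passed in 7 of 15 alternatives, among them those without sh-Control library B (0.0153) or shDDX41 #1 library D (0.0136), and the adjusted p over all 15 ran from 0.00494 to 0.274. The symbol is written as that of an antisense transcript of HNRNPU, but it names no gene in GENCODE release 29, and the RefSeq gene table lists it as a synonym of HNRNPU itself. What was counted under it is therefore uncertain, and its position is not given. Its counts were 3.26 to 4.31% of the HNRNPU counts in sh-Control, 6.21 to 8.11% with hairpin #1 and 3.83 to 4.93% with hairpin #2. COX20, which overlaps HNRNPU exons on the opposite strand, moved the other way, with log2 fold changes of -1.14 ± 0.102 with hairpin #1 (adjusted p = 4.9e-07) and -0.54 ± 0.0978 with hairpin #2 (adjusted p = 0.001).

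**Figure D3:**
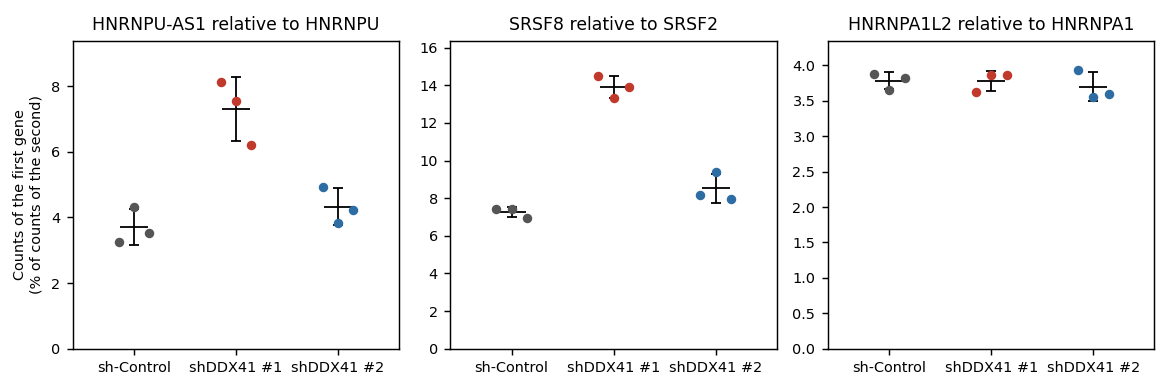
Counts of HNRNPU-AS1, SRSF8 and HNRNPA1L2 as a percent of the counts of HNRNPU, SRSF2 and HNRNPA1 in the same library (vertical axes, from 0), one dot per library with the mean and SD of each group of 3. The first 2 ratios are higher in all 3 libraries of shDDX41 #1, whereas HNRNPA1L2 stays between 3.56 and 3.93% of HNRNPA1 in all 9 libraries.

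The A/B-type hnRNPs, abundant proteins that bind exonic and intronic silencers, split in direction. HNRNPA1, at chr12:54280193-54287088 on the + strand, was at 1570, 1530 and 1660 CPM in sh-Control, 1920, 2000 and 2250 CPM with shDDX41 #1, and 1700, 1790 and 1660 CPM with shDDX41 #2. All libraries of hairpin #1 were above all others. It rose by 29.4% with hairpin #1 (log2 fold change 0.37 ± 0.0723, adjusted p = 6.6e-04). The change with hairpin #2 was 0.11 ± 0.0722 (adjusted p = 0.271), and the hairpins differed by 0.26 ± 0.0722 (adjusted p = 0.00827).

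HNRNPA1L2, an intronless copy at chr13:52642425-52643796 on the + strand, was at 61.1, 55.9 and 63.4 CPM in sh-Control, 69.3, 77.2 and 87.2 CPM with shDDX41 #1, and 67.0, 63.9 and 59.7 CPM with shDDX41 #2. The libraries of hairpin #1 were again above all others, and its log2 fold change with that hairpin matched that of HNRNPA1 (0.37 ± 0.0851, adjusted p = 0.00217). The hairpins differed by 0.29 ± 0.0849 (adjusted p = 0.0102, and 0.056 without shDDX41 #2 library D). Its counts were 3.56 to 3.93% of the HNRNPA1 counts in every library. How reads that map to both copies were counted is not stated, so HNRNPA1L2 is uncertain as a separate observation.

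In contrast, HNRNPA3, at chr2:177212563-177223958 on the + strand, was at 702, 727 and 747 CPM in sh-Control, 555, 604 and 633 CPM with shDDX41 #1, and 765, 785 and 737 CPM with shDDX41 #2. The libraries of hairpin #1 were below all others. It fell by 0.28 ± 0.0654 with hairpin #1 (adjusted p = 0.00252), changed by 0.07 ± 0.0652 with hairpin #2 (adjusted p = 0.452), and differed between the hairpins by -0.35 ± 0.0654 (adjusted p = 4.2e-04).

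HNRNPAB, which binds RNA as an A/B-type protein, was at 427, 435 and 448 CPM in sh-Control, 321, 335 and 322 CPM with shDDX41 #1, and 390, 409 and 366 CPM with shDDX41 #2. The 3 groups did not overlap. The gene lies at chr5:178204507-178211163 on the + strand. It fell with hairpin #1 by 0.42 ± 0.0613 (adjusted p = 5.4e-05). The change of -0.17 ± 0.0611 with hairpin #2 missed the threshold (adjusted p = 0.0545). Over 15 alternatives its adjusted p ran from 0.0254, without shDDX41 #1 library D, to 0.229. The hairpins differed by -0.25 ± 0.0613 (adjusted p = 0.0033). HNRNPA2B1 fell by 0.18 ± 0.0687 with hairpin #1 (adjusted p = 0.0416). This call was lost when sh-Control library B or D, shDDX41 #1 library A or any library of shDDX41 #2 was left out (adjusted p from 0.0538 to 0.197). Upper quartile factors (0.238) and a fit of only the 6 libraries compared (0.0944) ended it too. CBX3, which overlaps HNRNPA2B1 exons on the opposite strand, was at 445 ± 30.5 CPM in sh-Control. Its log2 fold changes were -0.18 with hairpin #1 (adjusted p = 0.0541) and -0.24 with hairpin #2 (adjusted p = 0.0212). Whether reads of the overlap entered either count was not tested. HNRNPA0 was not called in any comparison.

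The H-type hnRNPs bind runs of G. HNRNPH1, at chr5:179614178-179634784 on the - strand, was at 590, 690 and 659 CPM in sh-Control, 545, 594 and 580 CPM with shDDX41 #1, and 522, 525 and 505 CPM with shDDX41 #2. Hairpin #2 placed all 3 libraries below the controls, whereas hairpin #1 left an overlap. It fell by 0.32 ± 0.0684 with hairpin #2 (adjusted p = 0.00341) and by 0.17 ± 0.0684 with hairpin #1 (adjusted p = 0.0472). The latter call was lost when sh-Control library B or D, shDDX41 #1 library A or B, or any library of shDDX41 #2 was left out (adjusted p from 0.0503 to 0.186). Upper quartile factors (0.249), only the 6 libraries compared (0.105) and no filter on low counts (0.0534) ended it too. HNRNPH3 fell by 0.19 ± 0.0583 with hairpin #1 (adjusted p = 0.0138, and 0.0614 without shDDX41 #1 library A) and by 0.17 ± 0.0583 with hairpin #2 (adjusted p = 0.0392). The second of these was lost on leaving out any library except shDDX41 #1 library D, with adjusted p from 0.0556 to 0.157 in those 8 fits. Upper quartile factors ended both calls of HNRNPH3 (0.122 with hairpin #1 and 0.0981 with hairpin #2). Fitting without the filter on low counts ended the call with hairpin #2 (0.104). HNRNPF was not called, and HNRNPH2 had too few counts to show a change of this size (log2 fold change 0.69 ± 0.389 with hairpin #1, adjusted p = 0.158).

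HNRNPLL, the L-type protein best known for repressing CD45 exons in lymphocytes, was 1 of the 2 genes that rose with shDDX41 #2, the other being TRA2A. It was at 108, 118 and 126 CPM in sh-Control, 125, 121 and 118 CPM with shDDX41 #1, and 143, 151 and 148 CPM with shDDX41 #2. Only the libraries of hairpin #2 exceeded the controls. The gene is at chr2:38561978-38603586 on the - strand. The log2 fold change was 0.33 ± 0.0676 with hairpin #2 (adjusted p = 0.00275) and 0.05 ± 0.068 with hairpin #1 (adjusted p = 0.611), and the hairpins differed by -0.28 ± 0.0677 (adjusted p = 0.00302). Its paralog HNRNPL was not called in any comparison.

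HNRNPK, a KH-domain protein that binds C-rich sequence, was called with hairpin #1 (log2 fold change -0.22 ± 0.0579, adjusted p = 0.00655, and 0.0653 under upper quartile factors) and between the hairpins (-0.20 ± 0.0579, adjusted p = 0.011, and 0.0503 without shDDX41 #2 library B). HNRNPC, HNRNPD, HNRNPDL, HNRNPM and HNRNPR were not called in any comparison, with log2 fold changes between -0.18 and 0.17. PTBP1, the pyrimidine tract-binding repressor, was at 920 ± 102 CPM in sh-Control, 837 ± 103 with shDDX41 #1 and 924 ± 12.3 with shDDX41 #2 (SD, n = 3), and was not called.

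Compared directly, the hairpins differed in 11 of the 38 genes (28.9%), 5 higher and 6 lower with shDDX41 #1. The background was higher, at 48.8% of all tested genes, 24.6% higher and 24.2% lower. At least 1.5-fold was reached by HNRNPUL1, HNRNPU-AS1 and SRSF8, against 19.0% of all genes. Upper quartile factors gave 15 calls here, 9 higher and 6 lower. The hairpins also left different amounts of DDX41, and dose and hairpin identity cannot be told apart.

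**Figure D4:**
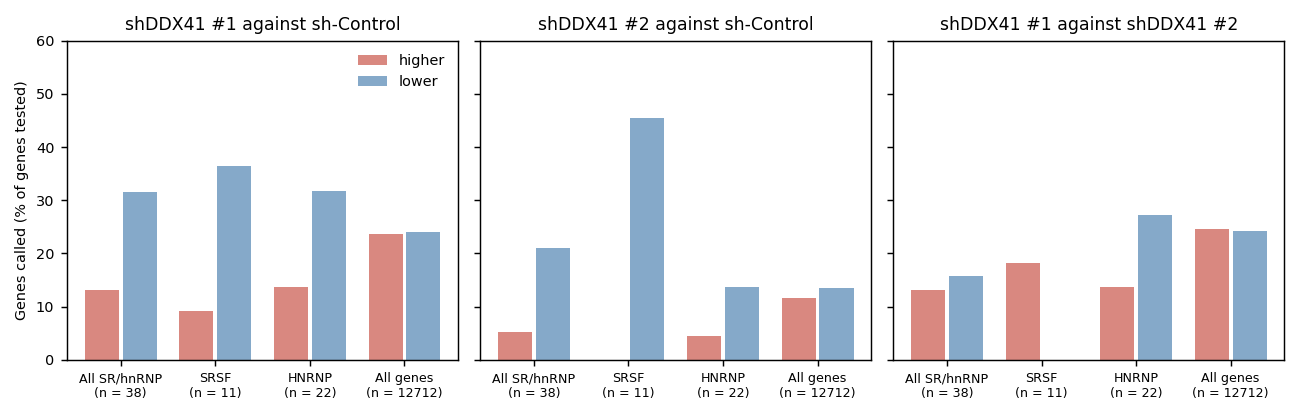
Percent of tested genes called higher (red) or lower (blue) at an adjusted p under 0.05 (vertical axis, from 0) among all 38 SR and hnRNP genes, the 11 SRSF genes, the 22 HNRNP genes and all 12712 tested genes, in the 3 comparisons. With shDDX41 #2, 5 of 11 SRSF genes are lower and 0 are higher, beside 13.4% and 11.6% of all genes.

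The 10 tested genes with a stop-holding cassette exon were set beside the 27 other tested genes found in the annotation, without a test between them. The 27 were not free of decay transcripts, which were annotated for SRSF1, SRSF2, SRSF11 and TRA2B among others. With shDDX41 #1, SRSF7 was the 1 gene of the 10 that was called, and 15 of the 27 others were called (55.6% of the latter, beside 47.8% of all genes). With shDDX41 #2 the counts were 4 of 10 (SRSF4, SRSF6 and SRSF7 lower, HNRNPLL higher) and 6 of 27 (22.2% of the latter, beside 25.0%). Between the hairpins, 1 of 10 (HNRNPLL) and 9 of 27 were called (33.3% of the latter, beside 48.8%). The median log2 changes of the 10 were -0.10 with hairpin #1 and -0.08 with hairpin #2, and those of the 27 were -0.13 and -0.04. Of 10 tested factors that carry out nonsense-mediated decay, 2 were called with each hairpin (20.0%, against 47.8% and 25.0% of all genes) and 4 between the hairpins (against 48.8%). SMG9 rose (log2 fold change 0.26) and SMG5 fell (-0.26) with hairpin #1, and SMG6 rose (0.30) and SMG5 fell (-0.33) with hairpin #2.

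SRPK kinases act on SR proteins mainly in the cytoplasm and CLK kinases in the nucleus, and transportins carry proteins into the nucleus. The genes of these enzymes and carriers showed calls in both directions. Of 12 kinase and import genes tested, 5 changed with shDDX41 #1 (2 higher, 3 lower), 3 with shDDX41 #2 (1 higher, 2 lower) and 10 between the hairpins (6 higher and 4 lower with #1). With hairpin #1, SRPK1 fell by 0.48 ± 0.0696 (adjusted p = 5.0e-05), TNPO1 fell by 0.35 ± 0.0625 (adjusted p = 2.9e-04) and SRPK2 rose by 0.45 ± 0.0786 (adjusted p = 2.8e-04). Hairpin #2 lowered TNPO2, by 0.67 ± 0.094 (adjusted p = 1.3e-04), and SRPK3, by 0.78 ± 0.224 (adjusted p = 0.0196), and raised SRPK2, by 0.24 ± 0.0788 (adjusted p = 0.0337), on the log2 scale. These shares were 41.7%, 25.0% and 83.3%, beside 47.8%, 25.0% and 48.8% of all tested genes. The median log2 fold changes of the 12 were 0.0, -0.09 and 0.21 in the 3 comparisons, against 0.01, -0.01 and 0.01 over all tested genes.

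The promoters were compared with short motifs, since several SR genes moved in 1 direction. Promoter windows of 300 bases, from 250 before to 50 after the start, were available from RefSeq (GRCh38.p14) for 34 members and for 9005 tested genes. Searching both strands and counting a gene when any of its windows held the motif, CCAAT was found for 21 members (61.76%) and 43.52% of the 9005 genes. Of the SRSF genes with a window, only SRSF3 and SRSF8 held CCAAT. SRSF1, SRSF4, SRSF5, SRSF6, SRSF7, SRSF9, SRSF10 and SRSF11 had windows without it. The other members with CCAAT were HNRNP genes, PTBP1 and SRRM1. TATAAA was found for 17.65% and 8.129%, CACGTG (the E-box) for 20.59% and 13.06%, the NRF1 motif GCGCATGCG for 8.824% and 4.442%, and the ETS motif CCGGAAGT for 8.824% and 10.45%. HNRNPUL1, the gene with the largest fall, had 3 windows at different starts, and CCAAT was found in 1 of them. That window is shown for the 250 bases before its start, which lies inside the span of the gene given above, at chr19:41264122-41264371 on the + strand. Its 4 CCAAT motifs, on either strand, are in capitals, and the last of them overlap each other.
HNRNPUL1: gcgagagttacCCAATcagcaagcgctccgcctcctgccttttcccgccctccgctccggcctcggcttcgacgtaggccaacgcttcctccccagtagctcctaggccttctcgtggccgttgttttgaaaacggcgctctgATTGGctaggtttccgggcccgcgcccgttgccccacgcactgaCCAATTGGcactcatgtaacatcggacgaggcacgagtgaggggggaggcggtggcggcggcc

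Such matches describe the letters in these windows and not binding.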

How the data were processed

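MOLM13 cells in 3 groups of 3 libraries were sequenced by the authors after poly(A) selection, with paired-end reads. The submitters' processing notes name FastQC 0.11.7, HISAT2 2.0.5, featureCounts 1.5.2 and the builds hg38 and mm10, without giving a role to each. The authors deposited raw, unnormalized counts of whole reads or fragments for each gene symbol, and 0 columns of samples were left unused. The annotation, the strand setting and the treatment of reads with several locations are not given in the sources used here. The labels name a stranded kit and the study's methods an unstranded kit of the same family, so genes overlapping on opposite strands are uncertain. Of the 38 tested members, 13 had such a neighbor.

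The fit used edgeR 4.0.16 under R 4.3.3. Low genes were removed by filterByExpr (minimum count 10), TMM factors ran from 0.9626 to 1.022, and all 9 libraries entered 1 quasi-likelihood model with the group as its only factor. The biological coefficient of variation was 0.0768. The two-sided tests were corrected over 12712 genes (Benjamini-Hochberg), and the threshold for a call was an adjusted p of 0.05. Standard errors were obtained as the absolute log2 fold change over the root of F. A single-gene exact permutation of 3 against 3 libraries cannot go below p = 0.1. Each level is in CPM, and its SD is over the 3 libraries of a group.

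Members and gene lists were chosen with earlier results of these data known. Library by library values are given for the 14 members with the largest absolute log2 fold change among those called, and for DDX41. For each list, up to 3 called genes with the smallest adjusted p were named in a comparison, and 1 gene that this rule would name is not reported here. Positions and transcript types come from GENCODE release 29 and promoters from RefSeq. The main model did not pair the libraries by letter. Between sh-Control and shDDX41 #1, deviations from the group means correlated at 0.0725, 0.158 and 0.243 for the letters A, B and D. Pairs of different letters in these groups ran from -0.184 to 0.0664. Same-letter pairs that included shDDX41 #2 ran from -0.0574 to 0.0225. The letter was fitted only as a block among the alternatives. The scripts were tested on simulated data. Alternatives were DESeq2 size factors, upper quartile factors, no filter on low counts, the DESeq2 1.42.0 Wald test, only the 6 libraries compared, the letter as a block, the removal of each single library, and the members without hyphenated symbols, HNRNPA1L2 and HNRNPCL1.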

Additional observations from a re-analysis of the deposited data

How the results depend on the processing

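Each call of an SR or hnRNP gene was repeated under 15 alternatives. Of 38 called values over the 3 comparisons, 27 stayed past the threshold in every alternative and 11 were lost in at least 1. With each library left out in turn, the number of called genes ran from 14 to 20 for shDDX41 #1, from 7 to 14 for shDDX41 #2 and from 10 to 15 between the hairpins. Upper quartile factors gave 11 in place of 17 for shDDX41 #1, 10 for shDDX41 #2 and 15 in place of 11 between the hairpins. These factors moved the median over all genes, on the log2 scale, from 0.012 to 0.087 with shDDX41 #1. The DESeq2 Wald test gave 18, 13 and 12, and the model with the replicate letter as a block gave 19, 13 and 13. Leaving out HNRNPU-AS1 and HNRNPA1L2 gave 15, 10 and 9 of 36 tested genes. Without sh-Control library A, 2 small values that were not called changed sign with shDDX41 #1, and the cause was not tested. Over the libraries left out, SRSF11 ran from -0.05 to 0.14 and HNRNPLL from -0.01 to 0.1 on the log2 scale. Gene-level counts limit all results, since they cannot separate decay-linked from coding transcripts.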

Other observations

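Genes related to the SR and hnRNP families by function or domain were counted in the same way. Among 35 tested hnRNP-like and splicing regulatory genes outside the families, 13 fell and 1 rose with shDDX41 #1, with a median log2 fold change of -0.13 against 0.01 over all tested genes. Called genes were 14 of 35 with shDDX41 #1, 5 (14.3%) with shDDX41 #2 and 13 (37.1%) between the hairpins, beside 47.8%, 25.0% and 48.8% of all tested genes. Under upper quartile factors, a recount chosen after seeing the data, 9 fell and 3 rose with shDDX41 #1 and 1 fell and 1 rose with shDDX41 #2, while the higher share of all called genes with shDDX41 #1 went from 49.5% to 61.1%. KHSRP, a KH-domain protein that promotes decay of AU-rich mRNAs, fell by 0.69 ± 0.0794 (adjusted p = 5.7e-06), and FUBP3 by 0.59 ± 0.0701 (adjusted p = 7.3e-06). With shDDX41 #2, 5 fell and 0 rose, and the median was -0.06. TIAL1 fell by 0.21 ± 0.0656 (adjusted p = 0.0265) and PTBP2, the neuronal paralog of PTBP1, by 0.31 ± 0.0964 (adjusted p = 0.0284). Between the hairpins, 3 were higher and 10 lower with hairpin #1, and MBNL3, TAF15 and KHSRP differed by -1.04 ± 0.132, -0.56 ± 0.0656 and -0.61 ± 0.0793 (adjusted p = 1.3e-05, 6.6e-06 and 1.7e-05).

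The other proteins with RS domains or nuclear speckle location were counted likewise. Of 25 tested, 2 rose and 3 fell with hairpin #1, 0 rose and 5 fell with hairpin #2, and 10 were higher and 2 lower when hairpin #1 was set against hairpin #2. These were 20.0%, 20.0% and 48.0% of the 25, beside 47.8%, 25.0% and 48.8% of all tested genes. PNN, a desmosome- and speckle-associated splicing factor, fell by 0.41 ± 0.082 with hairpin #2 (adjusted p = 0.00236) and was 0.49 ± 0.0821 higher with hairpin #1 than with #2 (adjusted p = 1.8e-04). LUC7L2, a U1 snRNP-associated protein that is recurrently lost in myeloid neoplasms, fell by 0.64 ± 0.0988 with hairpin #1 (adjusted p = 9.3e-05) and differed by -0.57 ± 0.099 between the hairpins (adjusted p = 2.5e-04). Median log2 fold changes of the 25 were 0.08, -0.08 and 0.10.

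The microRNA gene MIR7-1, which lies over HNRNPK on the same strand, was chosen for mention after its values were seen. It was at 1.34 ± 0.378 CPM in sh-Control, 3.72 ± 0.247 with hairpin #1 and 0.813 ± 0.326 with hairpin #2 (SD, n = 3), and rose with hairpin #1 (log2 fold change 1.47 ± 0.256, adjusted p = 2.7e-04) while HNRNPK fell. Whether these reads came from HNRNPK transcripts was not tested.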
